A study of Homo sapiens with 6 samples.

Results

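The p53 target genes described here are 31 genes that the tumour suppressor p53 is known to activate, chosen as a list of gene symbols and matched to the symbol column of the deposited count table. All 31 were found, and 30 of them had the 10 reads in total needed to enter the test, among 23617 genes tested. The exception was *TNFRSF10A*, a receptor for the death ligand TRAIL, which had 1, 0 and 0 reads in the control libraries and 0, 2 and 1 in the others. Total RNA was sequenced from HEK293T cells, a human embryonic kidney line, grown in DMEM with 10% FBS and carrying a lentiviral short hairpin (pLKO.1 vector, stable selection). The 3 libraries named sh-control expressed a nonspecific hairpin, and the 3 sh-RREB1-labelled libraries expressed a hairpin against *RREB1*, the gene of a zinc finger transcription factor. No source says that libraries of one group came from separate cultures, so that p-values measure the spread between these libraries, which may be technical.

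p53 is kept low in unstressed cells because MDM2 ubiquitinates it, and DNA damage kinases and other stress signals stabilise it. Stabilised p53 binds as a tetramer to a DNA element of a pair of half-sites and raises transcription of genes for cell cycle arrest, DNA repair, apoptosis and metabolism, together with its own inhibitors. HEK293T cells carry the SV40 large T antigen, which binds p53, and adenoviral E1 proteins, so the p53 pathway of these cells is not that of a normal cell. Both groups share this background.

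The DNA element was searched for in the hg38 sequence within 3000 bases on each side of the annotated start of each gene. A match was the p53 consensus of 20 bases, made of 2 half-sites of 10 bases with no spacer, with the fixed C and G of each half-site kept and at most 2 mismatches elsewhere. The consensus reads the same on both strands, so each match covers both. It was found in 15 of the 31 genes (48.4%) and in 4.57% of 14585 protein-coding genes. With at most 1 mismatch it was found in 6 of the 31 (19.4%) and in 0.576% of the protein-coding genes. Shown are the matches of *PLK2* and *ZMAT3*, which have no mismatch, of *CCNG1*, *PMAIP1* and *SPATA18*, which were lower in the test, and of *MDM2*, *CDKN1A* and *AEN*, whose result turned on the scaling or was unresolved. They are printed in the direction of the gene, with the 20 matched bases in capitals and 5 flanking bases in lower case.
PLK2: atgagAAACATGCCTGGACTTGCCCtgcac
CCNG1: tgtgaGCACAAGCCCAGGCTAGTCCgaggc
PMAIP1: tttctGGGCTTGTTTACCCAAGTCTctaat
SPATA18: aggaaGGACATGTGTGTACATGCCCttgtc
MDM2: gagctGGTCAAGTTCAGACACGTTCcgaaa
CDKN1A: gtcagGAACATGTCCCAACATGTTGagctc
ZMAT3: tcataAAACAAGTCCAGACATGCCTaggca
AEN: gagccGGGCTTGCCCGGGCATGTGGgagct

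The matches of *PLK2* (chr5:58462269-58462298, minus strand) and *ZMAT3* (chr3:179070183-179070212, minus strand) had 0 mismatches. The first lay 2145 bases before the start of its gene, and the second lay 2017 bases after it, in an intron. The *CCNG1* match shown (chr5:163437921-163437950, plus strand) had 1 mismatch and lay 366 bases after the start, in an intron. Another *CCNG1* match, not shown, had 2 mismatches and lay 2386 bases after the start, also in an intron. The other matches shown had 2 mismatches. Those of *MDM2* (chr12:68808918-68808947, plus strand) and *SPATA18* (chr4:52051952-52051981, plus strand) lay in introns, 755 and 662 bases after the start. Those of *PMAIP1* (chr18:59899544-59899573, plus strand) and *AEN* (chr15:88621301-88621330, plus strand) lay 438 and 22 bases before the start. The *CDKN1A* match (chr6:36676444-36676473, plus strand) spanned the annotated start of the gene, which is that of its outermost transcript. It lay outside the canonical transcript. These are matches of letters and not measured binding, and a gene without one has only no such letters in this window.

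**Figure D1:**
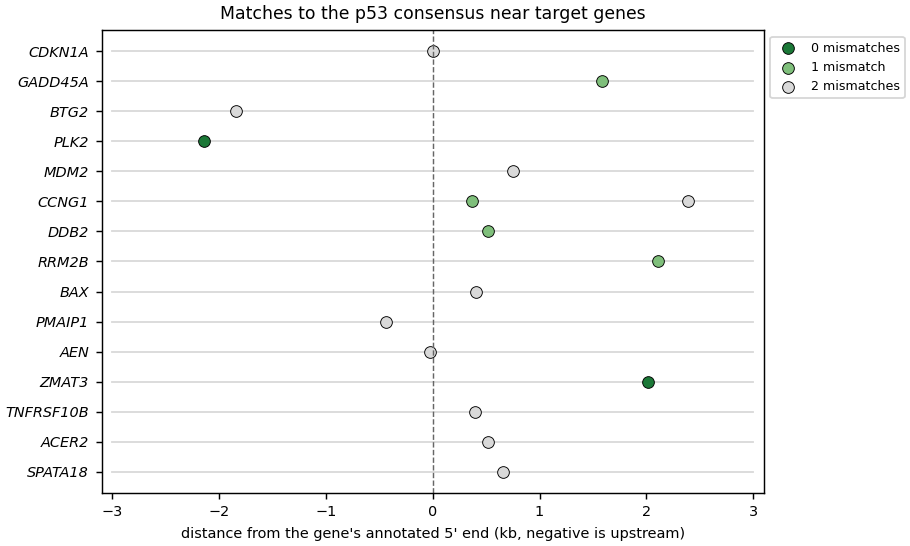
Position of the p53 consensus matches around the start of each target gene. The x axis is the distance from the gene start in kb, in the direction of the gene, each row is 1 of the 15 genes with a match, and the shade of a point gives its number of mismatches. The 2 genes whose match has no mismatch are *PLK2* and *ZMAT3*.

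The libraries held between 12257054 and 33044061 reads on the gene strand, the smallest being replicate 3 labelled sh-RREB1, of whose aligned reads 52.11% were multi-mapping against 3.66% to 7.63% in the other 5. The hairpin target *RREB1* had 27.1, 25.1 and 26.5 CPM (reads scaled to the size of the library) in the controls and 23.7, 24.6 and 23.1 in the sh-RREB1-labelled libraries. Its log2 fold change was −0.14 (SE 0.13, adjusted p = 0.489), and −0.36 (adjusted p = 0.0532) after a correction for GC content explained with the results, so the knockdown named by the label did not pass the test and the groups are given by label throughout. Of the HEK293 markers, *VIM*, *EYA1*, *NEFM*, *KRT8* and *KRT18* had at least 8.89 CPM in all libraries, whereas *PAX2* stayed at or below 0.475 CPM. *VIM*, *EYA1* and *PAX2* were higher in the sh-RREB1-labelled libraries, by 0.75, 1.83 and 1.76 on the log2 scale (adjusted p = 0.00393, 0.000668 and 0.0341). Of the markers of other cell types, *PTPRC* and *CDH5* were below the filter, *ALB* and *PECAM1* stayed at or below 0.514 CPM, and *COL1A1* and *COL1A2* reached at most 2.63 and 3.93 CPM, both in replicate 2 labelled sh-RREB1. *COL1A1*, a fibroblast marker, had 0.347 to 0.684 CPM in the controls and 0.949 to 2.63 in the sh-RREB1-labelled libraries, a log2 fold change of 2.0 (adjusted p = 0.0132; 1.17 when corrected, adjusted p = 0.0277). The part of these marker differences in the results was not tested. In bulk RNA, fewer expressing cells and less RNA per cell cannot be told apart.

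All 30 tested p53 targets had a mean of more than 1 CPM over the 6 libraries. On the scale of CPM per kb of the canonical transcript, the level in controls ran from 0.294 ± 0.175 (SD, n = 3) for *BBC3* to 210 ± 15.0 for *CCNG1*, which encodes cyclin G1. Next after *CCNG1* came *PMAIP1* at 75.7 ± 5.87 and *TRIAP1* at 75.4 ± 2.65, which did not differ beyond their spread, and then *BAX* at 48.4 ± 20.4 and *MDM2* at 48.3 ± 3.81, which likewise did not. *CDKN1A*, the gene of the cell cycle inhibitor p21, was at 30.6 ± 9.09. At the low end were *PHLDA3* at 2.85 ± 0.913 and *PLK3* at 0.672 ± 0.293.

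The p53 targets changed in both directions between the groups. With edgeR's quasi-likelihood test and Benjamini-Hochberg adjustment over all genes, 2 of 30 were higher in the sh-RREB1-labelled libraries at an adjusted p below 0.05 (6.67%, against 10.7% of all genes tested), namely *BBC3* and *PHLDA3*. At the same threshold 8 of 30 were lower (26.7%, against 8.70% of all genes tested): *PLK2*, *PPM1D*, *CCNG1*, *POLH*, *RRM2B*, *PMAIP1*, *TRIAP1* and *SPATA18*. Genes with low counts have little chance to pass a test. The shares among the 14595 genes with a mean above 1 CPM were 14.8% higher and 13.1% lower. At the stricter call, a log2 fold change beyond 1 in either direction with an adjusted p below 0.01, *BBC3* was the only member called higher (2.69% of all genes) and 0 members were called lower (0.690% of all genes). DESeq2 called 2 higher and 0 lower at that threshold (1389 higher and 267 lower among all 23617 genes). In edgeR 17 of the 30 had an unadjusted p below 0.05, as had 8069 of the 23617 genes. The median log2 fold change of the 30 was −0.11, against 0.01 for all genes, with 13 values above 0 and 17 below. Leaving out 1 library moved the count of members lower from 8 to 0 without replicate 2 of sh-control, to 4 without replicate 3 of sh-control and to 1 without replicate 3 labelled sh-RREB1, the shallowest library, and the strict call of *BBC3* was kept only without replicate 1 of sh-control.

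Without regard to the test, all 3 sh-RREB1-labelled libraries lay above all 3 controls in 6 of the 30 (21.0% of all genes) and below them in 12 (19.9% of all genes). The share of members that lay higher was thus close to that of all genes, whereas 40.0% lay lower. Among genes with a mean above 1 CPM the shares were 26.2% higher and 26.6% lower.

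**Figure D2:**
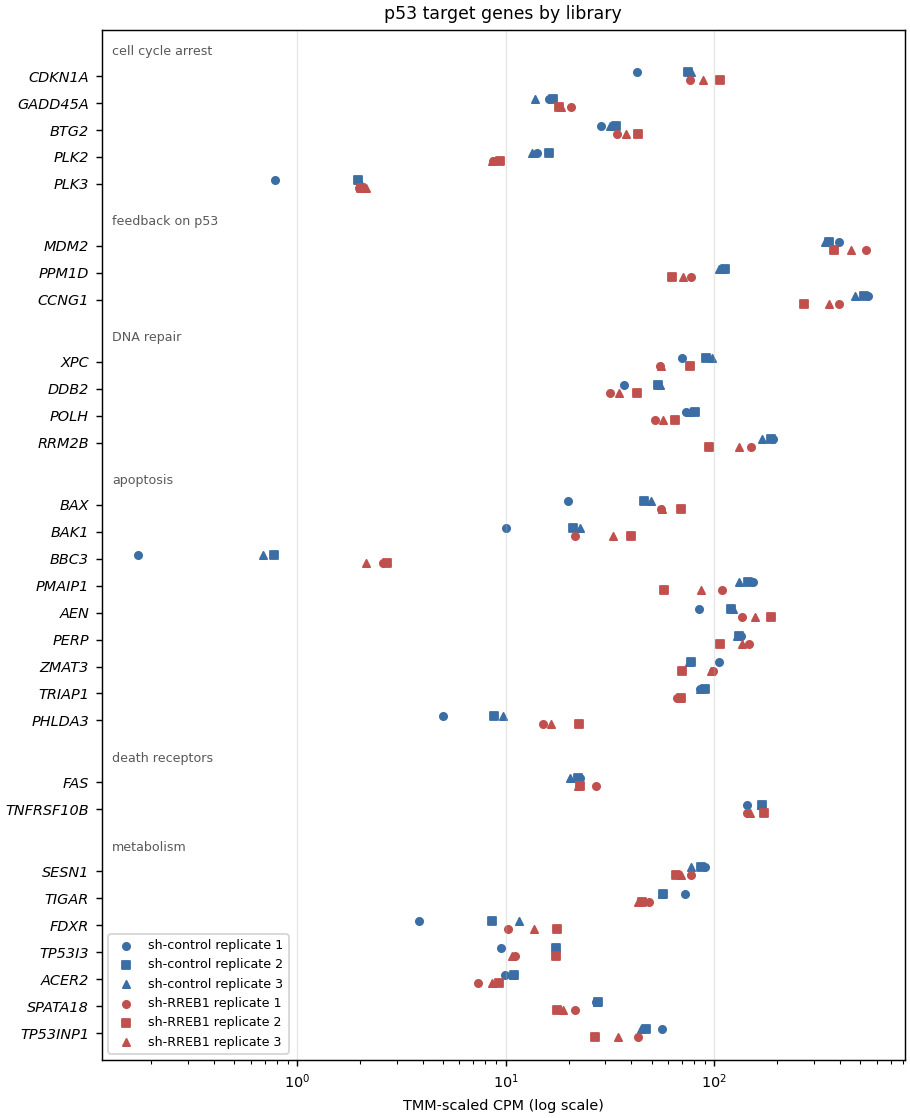
CPM of the 30 tested p53 target genes in each library, grouped by role. The x axis is CPM on a log scale, each row is a gene, and each point is 1 library, coloured by group and shaped by replicate. The 3 sh-RREB1-labelled libraries lie clear to the right of the controls for *BBC3* and *PHLDA3*, and clear to the left for *PLK2*, *PPM1D* and *CCNG1*.

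Fold changes of these genes moved with base composition. Across the 30 members the log2 fold change and the GC content of the exons had a Pearson r of 0.75 and a Spearman rho of 0.69, and across the 14479 genes with a GC value and more than 1 CPM these were 0.62 and 0.59, where genes share the same 6 libraries and are not independent. Of the 14 members above the median GC content of all genes (47.1%), 10 had a log2 fold change above 0 and the median was 0.41. Of the 16 below it, 13 had a value below 0 and the median was −0.42. All 8 members that fell were in the GC-poor set and both that rose were in the GC-rich set.

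Single libraries differed in the same way. Replicate 1 of sh-control was below both other controls in 13 of the 14 GC-rich members and above both in 10 of the 16 GC-poor members, and replicate 2 labelled sh-RREB1 was above both others of its group in 12 of the 14 and below both in 10 of the 16. The comparison was therefore also made after each library's trend on GC content and exon length had been removed as an offset, and corrected values are given beside the uncorrected ones. After this correction the correlation of the members was 0.16 (Pearson) and 0.06 (Spearman). At an adjusted p below 0.05, 4 of 30 were then higher (10.3% of all genes) and 10 lower (11.6% of all genes), with a median of −0.22 against −0.03 for all genes. The members higher were *MDM2*, *BBC3*, *AEN* and *PHLDA3*, and those lower were *PLK2*, *PPM1D*, *CCNG1*, *XPC*, *DDB2*, *POLH*, *RRM2B*, *PMAIP1*, *SPATA18* and *TP53I3*. The part of GC content in the differences cannot be told apart from a change of GC-rich genes with the hairpin, since the trend differed between the groups.

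**Figure D3:**
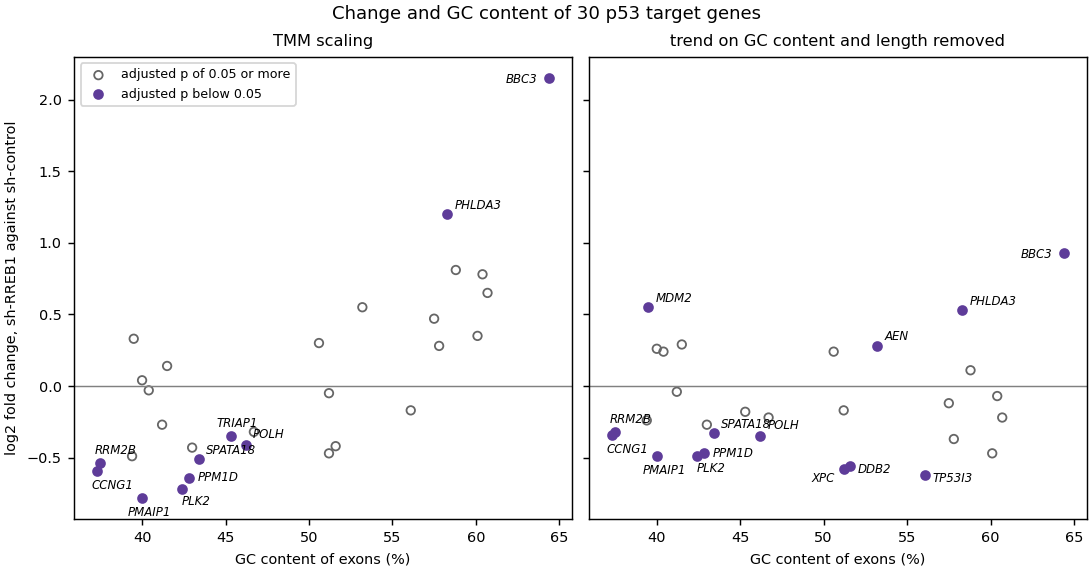
Log2 fold change of 30 p53 target genes (y axis) against the GC content of their exons in percent (x axis), with TMM scaling (left) and with the trend on GC content and length removed (right). Filled points have an adjusted p below 0.05, and the slope across the members on the left (r = 0.75) is much smaller on the right (r = 0.16).

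Of the 5 genes for cell cycle arrest, *PLK2* fell and the other 4 did not pass the test. *PLK2*, a polo-like kinase gene (ENSG00000145632, chr5:58453982-58460139), had 14.1, 16.2 and 13.4 CPM in the controls and 8.68, 9.36 and 8.55 in the sh-RREB1-labelled libraries. The groups did not overlap, and the level was 39.1% lower (log2 fold change −0.72, SE 0.16, adjusted p = 0.0165). After the GC correction the change was −0.49 (adjusted p = 0.0161), and the 95% interval of the uncorrected change was −1.07 to −0.36. Without replicate 2 of sh-control or replicates 1 or 3 labelled sh-RREB1 the adjusted p was 0.0708, 0.0514 and 0.0790. *CDKN1A* (ENSG00000124762, chr6:36676460-36687337) had 42.7, 74.6 and 77.3 CPM in the controls and 76.5, 106 and 88.2 in the other libraries. Replicate 1 of sh-control was low, and the highest control was above the lowest library labelled sh-RREB1. The log2 fold change was 0.47 (SE 0.22, 95% interval −0.03 to 0.98, adjusted p = 0.171), and after the GC correction, which raised that control to 74.0 CPM, it was −0.12 (adjusted p = 0.354). p21 is the textbook readout of p53 activity, and at this precision its mRNA did not differ detectably.

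The other 3 arrest genes were also unresolved. *GADD45A*, a stress sensor, and *BTG2*, an antiproliferative gene, had log2 fold changes of 0.28 and 0.30 (adjusted p = 0.228 and 0.173) with groups that did not overlap, and *PLK3*, another polo-like kinase gene, had 0.35 (adjusted p = 0.506) from at most 2.14 CPM in a library. The GC correction left *BTG2* at 0.24 and took *GADD45A* and *PLK3* to −0.37 and −0.47, respectively (adjusted p = 0.0729, 0.277 and 0.151). For *GADD45A* it moved replicate 1 of sh-control from 16.2 to 28.3 CPM, against 18.7 and 13.8 in the other controls. Without that library the corrected change was −0.08.

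The 3 feedback genes, which restrain p53, split. *PPM1D* (ENSG00000170836, chr17:60600193-60666280), the gene of the phosphatase WIP1 that removes activating phosphates from p53 and its kinases, had 111, 112 and 105 CPM in the controls and 77.1, 63.0 and 71.1 in the sh-RREB1-labelled libraries. The groups stood apart by far more than their spread, and the level was 35.7% lower (log2 fold change −0.64, SE 0.11, adjusted p = 0.00835). Among the 8 members that fell it passed 0.05 in the most of the 21 alternatives, namely 20. The change was −0.47 after the GC correction (adjusted p = 0.00303), and it passed 0.05 in 5 of 6 fits that left out 1 library, with 0.0516 without replicate 2 of sh-control, and in 6 of 6 such fits with the correction.

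*CCNG1* (ENSG00000113328, chr5:163437569-163446151), whose product recruits a phosphatase to MDM2, had 546, 520 and 474 CPM in the controls and 397, 268 and 355 in the other libraries. All 3 were below every control, though they spread widely. The level was 33.7% lower (log2 fold change −0.59, SE 0.15, adjusted p = 0.0257), and −0.34 with the GC correction (adjusted p = 0.010). Without replicate 2 of sh-control the adjusted p was 0.0970, and without replicate 3 labelled sh-RREB1 it was 0.0842.

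*MDM2* (ENSG00000135679, chr12:68808177-68845544), the ubiquitin ligase gene that is itself a p53 target, had 394, 353 and 339 CPM in the controls and 534, 374 and 453 in the other libraries. Replicate 2 labelled sh-RREB1 lay within the range of the controls. The log2 fold change was 0.33 (SE 0.14, adjusted p = 0.138). After the GC correction the controls lay between 328 and 338 CPM and the other libraries between 455 and 524, and *MDM2* was higher by 0.55 (SE 0.08, adjusted p = 0.000889), also in 6 of 6 fits that left out 1 library. The result for *MDM2* thus turned on the correction, in a direction opposite to that of *PPM1D* and *CCNG1*. An unnamed gene shares exon sequence with *MDM2* on the same strand, so some reads could be counted to neither. The same holds for *BBC3* (with *MIR3191*), *PHLDA3* and *TIGAR*.

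The 4 DNA repair genes were all below 0 under each scaling and filter tried. *POLH*, the translesion polymerase eta gene, had 73.3, 81.1 and 76.2 CPM in the controls and 51.7, 64.7 and 57.0 in the sh-RREB1-labelled libraries, without overlap. It fell by 24.8% (log2 fold change −0.41, SE 0.12, adjusted p = 0.0457). *RRM2B*, the gene of the p53-inducible ribonucleotide reductase subunit, had 191, 188 and 170 CPM against 150, 94.6 and 132 and fell by 31.4% (log2 fold change −0.54, SE 0.16, adjusted p = 0.0487). Both passed the threshold narrowly. The adjusted p of *POLH* reached 0.127 and 0.0777 without replicates 2 and 3 of sh-control and 0.113 and 0.152 without replicates 1 and 3 labelled sh-RREB1, and that of *RRM2B* was at least 0.0586 in all fits that left out 1 library except the one without replicate 1 labelled sh-RREB1.

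*XPC* and *DDB2* encode the damage sensors of global nucleotide excision repair, and neither passed the test before the correction. *XPC* had 70.0, 90.9 and 97.0 CPM in the controls and 55.0, 76.1 and 55.4 in the other libraries, with a log2 fold change of −0.47 (SE 0.17, adjusted p = 0.0916). *DDB2* had 36.8, 53.8 and 54.8 CPM against 31.5, 42.5 and 34.9, with −0.42 (SE 0.19, adjusted p = 0.152). In both, replicate 1 of sh-control overlapped replicate 2 labelled sh-RREB1. After the GC correction the groups no longer overlapped in any of the 4, and all 4 passed 0.05, with log2 fold changes of −0.58 for *XPC* (adjusted p = 0.00166), −0.56 for *DDB2* (0.00307), −0.35 for *POLH* (0.0167) and −0.32 for *RRM2B* (0.0182). The first 2 did so in 6 of 6 corrected fits that left out 1 library, the others in 2 and 3.

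**Figure D4:**
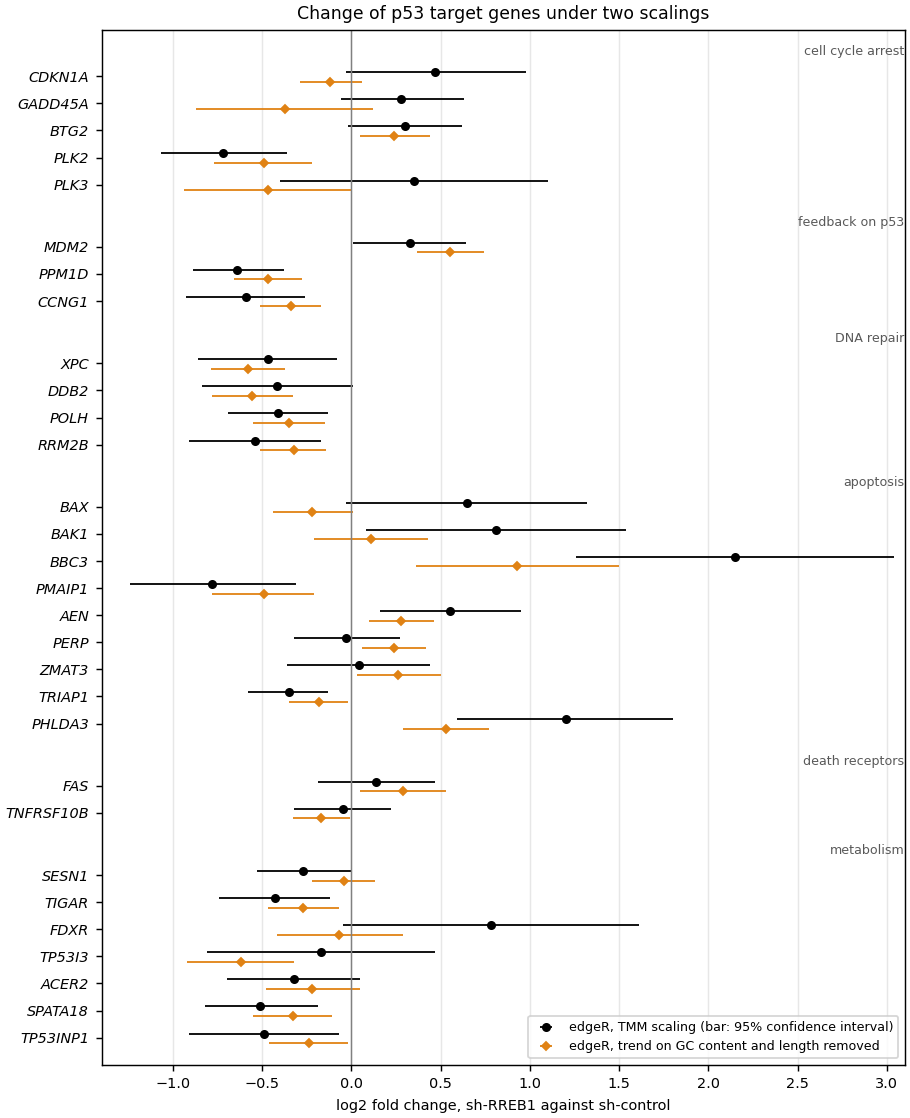
Log2 fold change of each tested p53 target gene, sh-RREB1-labelled libraries against sh-control, grouped by role (x axis, with bars for the 95% interval), with TMM scaling and with the trend on GC content and length removed. The 4 repair genes lie below 0 in both, and *CDKN1A*, *GADD45A*, *PLK3*, *BAX*, *PERP* and *FDXR* change sign between them.

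Among the 9 genes of the mitochondrial arm of apoptosis and related death genes, 2 rose and 2 fell. *BBC3* (ENSG00000105327, chr19:47220822-47232766), which encodes the BH3-only killer PUMA, had 0.173, 0.771 and 0.684 CPM in the controls and 2.57, 2.71 and 2.14 in the sh-RREB1-labelled libraries. These values came from 4, 21 and 22 reads and from 64, 71 and 27 reads. The groups were far apart, by a factor of 4.43 (log2 fold change 2.15, SE 0.39, adjusted p = 0.00897). *BBC3* has the highest GC content of the members, 64.4%, and after the GC correction the change was 0.93 (SE 0.26, adjusted p = 0.0255). The uncorrected change passed 0.05 in 6 of 6 fits that left out 1 library, and the corrected one in 3, with adjusted p of 0.106 without replicate 3 of sh-control and of 0.0868 and 0.0609 without replicates 1 and 3 labelled sh-RREB1.

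*PHLDA3* (ENSG00000174307, chr1:201464278-201469237), whose product blocks AKT at the membrane, had 4.99, 8.78 and 9.74 CPM in the controls and 15.1, 22.5 and 16.5 in the other libraries. The lowest of these exceeded the highest control, and the level was 2.29 times higher (log2 fold change 1.20, SE 0.27, adjusted p = 0.0176). After the GC correction it was higher by 0.53 (SE 0.11, adjusted p = 0.00598), and it passed 0.05 in 6 of 6 corrected fits that left out 1 library but in 3 of 6 uncorrected ones (0.0618 without replicate 2 of sh-control, 0.0573 and 0.0570 without replicates 2 and 3 labelled sh-RREB1). *AEN*, an apoptosis-enhancing nuclease gene, had 84.2, 120 and 123 CPM against 136, 187 and 157, with groups that did not overlap. Its log2 fold change of 0.55 (SE 0.17) had an adjusted p of 0.0553, and its corrected value of 0.28 one of 0.0337, which stayed below 0.05 only when replicate 1 labelled sh-RREB1 was the library left out (0.0571 to 0.13 otherwise).

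*PMAIP1* (ENSG00000141682, chr18:59899996-59904305), the gene of the BH3-only protein NOXA, moved the other way from *BBC3*. It had 154, 145 and 132 CPM in the controls and 109, 57.3 and 86.1 in the sh-RREB1-labelled libraries, all 3 of them below the controls. It was 41.6% lower (log2 fold change −0.78, SE 0.21, adjusted p = 0.0316), and −0.49 after the correction (adjusted p = 0.0187). Without replicate 2 of sh-control the adjusted p was 0.104, and without replicate 3 labelled sh-RREB1 it was 0.101. *TRIAP1*, an inhibitor of apoptosome formation, had 85.1, 90.4 and 85.1 CPM against 66.3, 69.1 and 68.5 and was 21.7% lower (log2 fold change −0.35, SE 0.10, adjusted p = 0.0399). With the correction *TRIAP1* was at −0.18 (adjusted p = 0.113), and uncorrected it passed 0.05 only without replicate 1 of sh-control or replicate 2 labelled sh-RREB1, being at 0.0793 to 0.137 in the other 4 fits.

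The pore-forming effectors did not pass the test. *BAX* had 19.9, 46.1 and 49.6 CPM in the controls and 55.7, 69.2 and 56.0 in the other libraries, without overlap but with replicate 1 of sh-control far below the rest, and a log2 fold change of 0.65 (SE 0.30, adjusted p = 0.161). The correction set that control at 43.0 CPM and the change at −0.22 (adjusted p = 0.157). *BAK1* had 9.98, 21.0 and 22.6 CPM against 21.5, 39.9 and 32.7, with 0.81 (SE 0.32, adjusted p = 0.111) and 0.11 when corrected. *PERP*, a desmosomal membrane protein gene, and *ZMAT3*, an RNA-binding zinc finger gene, lay within 0.04 of 0 on the log2 scale (adjusted p = 0.910 and 0.897), with 95% intervals of −0.32 to 0.27 and −0.36 to 0.44. Corrected values were 0.24 and 0.26 (adjusted p = 0.0625 and 0.0979).

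Neither measured death receptor gene passed the test. *FAS* had 20.4 to 22.8 CPM in the controls and 22.2 to 27.2 in the other libraries (log2 fold change 0.14, SE 0.15, 95% interval −0.19 to 0.47, adjusted p = 0.556), and it shares exon sequence with *STAMBPL1* on the same strand. *TNFRSF10B*, the gene of the TRAIL receptor DR5, was the more abundant, with 144 to 170 CPM in the controls and 143 to 173 in the other libraries (log2 fold change −0.05, SE 0.12, 95% interval −0.32 to 0.22, adjusted p = 0.811). The corrected values of *FAS* and *TNFRSF10B* were 0.29 and −0.17 (adjusted p = 0.0786 and 0.123).

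Of the 7 genes for metabolism, redox balance and mitochondrial upkeep, 6 had log2 fold changes below 0, and *SPATA18* passed the test. *SPATA18* (ENSG00000163071, chr4:52051304-52097299), which encodes a regulator of mitochondrial quality, had 27.1, 27.7 and 27.4 CPM in the controls and 21.4, 17.6 and 18.8 in the sh-RREB1-labelled libraries. The controls were nearly equal and the groups did not overlap, with a level 29.7% lower (log2 fold change −0.51, SE 0.14, adjusted p = 0.0348). It was −0.33 after the correction (adjusted p = 0.0368). The adjusted p was 0.112 and 0.0756 without replicates 2 and 3 of sh-control and 0.0722 and 0.129 without replicates 2 and 3 labelled sh-RREB1. *TIGAR*, the fructose bisphosphatase gene that slows glycolysis, had 72.0, 56.7 and 55.9 CPM against 48.4, 45.1 and 43.1. These groups did not overlap either, but the log2 fold change of −0.43 (SE 0.14) had an adjusted p of 0.0566, and the corrected one of −0.27 had 0.0587.

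The autophagy gene *TP53INP1*, the ceramidase gene *ACER2* and the sestrin gene *SESN1* also lay lower in every library labelled sh-RREB1 than in any control, without passing the test. Their log2 fold changes were −0.49, −0.32 and −0.27 (adjusted p = 0.0962, 0.201 and 0.145), and −0.24, −0.22 and −0.04 after the correction. *TP53I3*, a quinone oxidoreductase gene, had 9.46, 17.4 and 17.4 CPM against 11.1, 17.5 and 10.7 and a log2 fold change of −0.17 (SE 0.28, adjusted p = 0.725). The correction moved replicate 1 of sh-control to 14.8 CPM and the change to −0.62 (adjusted p = 0.00786), which held in 6 of 6 corrected fits that left out 1 library. *FDXR*, the ferredoxin reductase gene, was at 0.78 (SE 0.37, adjusted p = 0.169) and −0.07 when corrected.

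Members with and without a match to the p53 element are set side by side without a test. Of the 15 tested members with a match, 0 rose and 5 fell, with a median log2 fold change of −0.05. Of the 15 without one, 2 rose and 3 fell, with a median of −0.17. Of all genes tested, 10.7% rose and 8.70% fell. These counts are from the uncorrected fit, in which the members moved with GC content, and the part of the match in them was not tested.

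Upstream of these targets, 19 of 20 listed regulators of p53 were tested, and 0 passed the stricter call (2.69% of all genes higher and 0.690% lower). The regulators named next passed an adjusted p below 0.05, at which 10.7% of all genes rose and 8.70% fell. With the correction these shares were 10.3% and 11.6%. *HIPK2*, the gene of a kinase that phosphorylates p53, rose by 0.66 (adjusted p = 0.0219; 0.57 when corrected, adjusted p = 0.0213), and the family member *TP73* by 0.94 (adjusted p = 0.0485), the latter at −0.08 when corrected. Some checkpoint genes and a ubiquitin ligase gene fell, namely *ATR* by 0.35, *CHEK1* by 0.42, *CHEK2* by 0.43, *TP53BP1* by 0.52 and *COP1* by 0.48 on the log2 scale (adjusted p between 0.0153 and 0.0455). After the correction *CHEK2*, *TP53BP1* and *COP1* were at −0.41, −0.46 and −0.35 (adjusted p = 0.00287, 0.00264 and 0.00929), whereas *ATR* and *CHEK1*, at −0.22 and −0.20, no longer passed the test (adjusted p = 0.162 and 0.0838). *MDM4*, the MDM2 relative that masks the p53 activation domain, had a log2 fold change of 0.30 (adjusted p = 0.300), and of 0.49 when corrected (adjusted p = 0.0175), so that its call, like that of *MDM2*, turned on the correction. Other regulators also passed 0.05 only when corrected. *RCHY1* was then at 0.36 (adjusted p = 0.0251), and *KAT5*, *DAXX* and *WRAP53* were at −0.36, −0.28 and −0.41 (adjusted p = 0.0182, 0.0422 and 0.0462).

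Of 24 further p53 targets 22 were tested, and 5 rose and 3 fell, against 10.7% and 8.70% of all genes tested. After the correction 3 rose and 3 fell, against 10.3% and 11.6% of all genes. *NINJ1*, whose product ruptures the membrane of dying cells, passed the stricter call with 0.824, 2.64 and 3.24 CPM in the controls and 8.96, 11.7 and 8.62 in the other libraries (log2 fold change 2.11, SE 0.40, adjusted p = 0.00952, and 1.39 when corrected, adjusted p = 0.000612). Its uncorrected strict call was kept only without replicate 1 of sh-control. The stress gene *SESN2* rose by 1.0 and *PIDD1*, of the PIDDosome, by 1.92, which the correction took to 0.19 and 0.51. The decoy TRAIL receptors *TNFRSF10C* and *TNFRSF10D* rose by 1.70 and 0.52 (adjusted p = 0.0166 and 0.0459) and were at 1.29 and 0.61 when corrected. *TNFRSF10C* and *PIDD1* rest on few reads. *TNFRSF10C* had 6, 20 and 27 in the controls and 50, 65 and 20 in the other libraries, and *PIDD1* had 6, 23 and 46 against 86, 102 and 32. *APAF1*, the scaffold gene of the apoptosome, had 112, 90.5 and 90.4 CPM against 56.0, 50.7 and 55.3, without overlap. It fell by 0.85 (SE 0.13, adjusted p = 0.00465) and by 0.64 with the correction (adjusted p = 0.000345). *TRIM22*, an antiviral gene, and *FBXW7*, a ubiquitin ligase gene, fell by 0.88 and 0.39 (adjusted p = 0.0408 and 0.0325). Neither passed the test after the correction, at −0.66 and −0.17 (adjusted p = 0.0902 and 0.15). *GLS2* and *CD82* passed it only when corrected, at −0.68 and −1.34 (adjusted p = 0.0120 and 0.0111), *CD82* from at most 48 reads in a library.

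Among 17 genes of the BCL2 family and the caspase cascade, *HRK* and *BAD* rose at an adjusted p below 0.05. Of all genes tested, 10.7% rose at that threshold. *HRK*, another BH3-only gene, had 3.51, 3.60 and 3.05 CPM in the controls and 9.68, 11.4 and 9.97 in the sh-RREB1-labelled libraries. The libraries of each group were close together, and the log2 fold change was 1.61 (SE 0.17, adjusted p = 0.00205) and 1.55 after the correction (adjusted p = 4.85e-05). *HRK* was the only gene of this list to pass the uncorrected strict call, against 2.69% of all genes called higher. It missed that call without replicate 2 of sh-control and without replicates 1 or 3 labelled sh-RREB1. *BAD* rose by 1.25 (adjusted p = 0.0431) but was at −0.01 when corrected. Others passed 0.05 only when corrected, with *CASP8* at 0.39 (adjusted p = 0.0335), *BID* at −0.39 (0.0214) and *CASP9* at −0.56 (0.00911). After the correction 10.3% of all genes rose and 11.6% fell at that threshold. The survival genes *BCL2*, *MCL1* and *BCL2L1* had log2 fold changes of 0.12, −0.18 and 0.47 (adjusted p = 0.699, 0.369 and 0.146), and of 0.26, −0.07 and −0.19 when corrected (adjusted p = 0.188, 0.706 and 0.225).

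**Figure D5:**
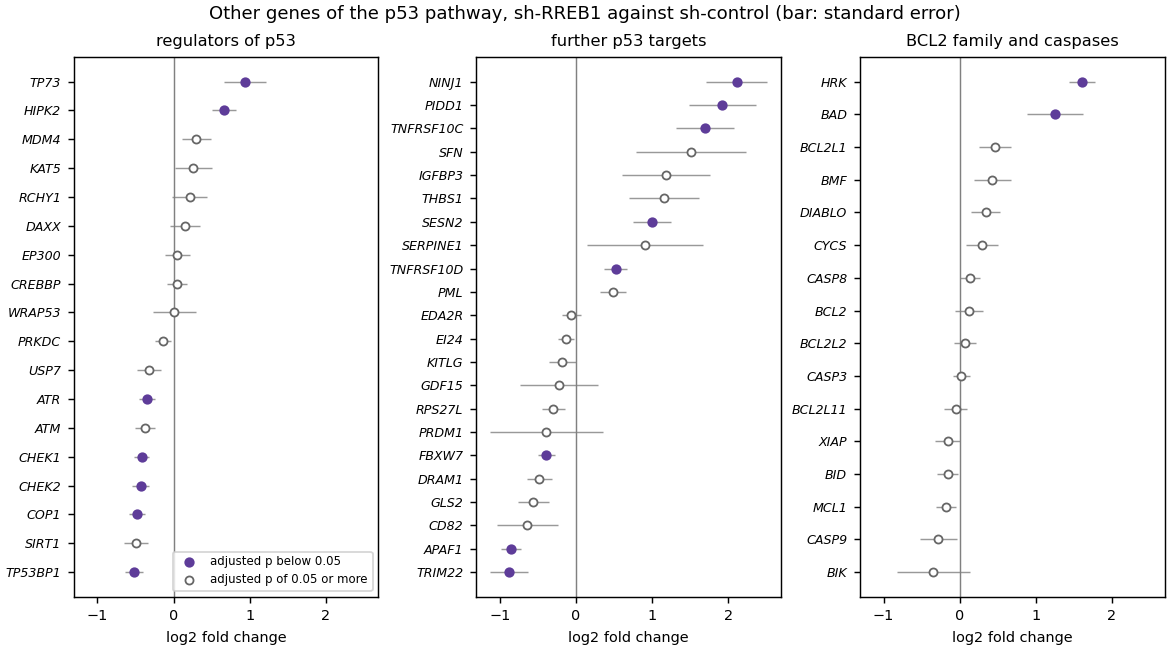
Log2 fold change (x axis, with bars for the standard error) of genes tested among the regulators of p53, the further p53 targets and the BCL2 family with caspases, 1 panel per list and 1 point per gene. Filled points have an adjusted p below 0.05, and the regulators and further targets hold filled points on both sides of 0.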

How the data were processed

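The authors deposited, for each library, raw gene counts from STAR, aligned to hg38 with Gencode version 25, and a merged table whose values matched the gene-strand column for all 24635 identifiers compared (0 values differed). Counts of the gene strand were used, with no normalization by the authors, since the kit keeps the strand. Groups followed the labels. Genes with at least 10 reads in total were fitted with edgeR 4.0.16 in R 4.3.3 (TMM, quasi-likelihood test on condition, Benjamini-Hochberg adjustment). CPM are TMM-scaled, and levels per kb use the canonical transcript of Gencode version 44. The strict call was a log2 fold change beyond 1 in either direction at an adjusted p below 0.01, and the second call an adjusted p below 0.05 alone. The GC correction removed each library's spline trend on GC content and exon length (5 degrees of freedom). The text names all 31 members, *RREB1*, *MDM4*, *MCL1*, *BCL2*, *BCL2L1* and genes of the other lists past either call, except some that are not reported here. Members and lists were chosen with earlier results of these data known. Counts were simulated with 200 genes changed by 1.5 on the log2 scale among 23161 and a trend on GC content and length. There edgeR recovered 81.5% with 608 unchanged genes called, and 96.5% with 0 after the correction. The simulated trend was the one fitted to these libraries by the same spline, so the correction removed a trend of its own form. The simulation cannot show whether the trend in these libraries is technical. Alternatives were DESeq2 1.42.0, other scalings, filters, strand, a replicate block and leaving out each library.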

Additional observations from a re-analysis of the deposited data

Results flagged for a closer look

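Reads on the strand opposite to a member gene were outside the comparisons. For *DDB2*, they were 46, 52 and 71 in the controls and 61, 76 and 39 in the sh-RREB1-labelled libraries, which is 1.97, 1.83 and 2.15 against 2.58, 2.91 and 3.18 when scaled to the reads on genes (CPM). All 3 sh-RREB1-labelled libraries lay above all controls on that scale. Among the other members only *TNFRSF10B* showed this, at 0.254, 0.153 and 0.163 against 0.0428, 0.141 and 0.121, from at most 6 reads in a library. Those values are scaled to the reads on the gene strand, and over all genes the opposite-strand reads were also higher relative to these, at 5.70%, 5.79% and 32.0% in the sh-RREB1-labelled libraries (the last in replicate 3) against 5.17% to 5.20% in the controls. These differences were not tested, and no gene is annotated on that strand over the exons of *DDB2*.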

How the results depend on the processing

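The strict call was made for 798 genes, and for 1656 with DESeq2, 1829 with a minimum of 1 read in total, 1707 with the replicate block, 716 with the GC and length correction and 8 to 1120 when 1 library was left out (457 to 713 of these with the correction, among them 507, 498 and 457 without replicate 2 of sh-control and replicates 1 and 3 labelled sh-RREB1). Among the members it was made for 1, and for 2 with DESeq2, a minimum of 1 read or the replicate block, for 0 with both strands together and with the correction, alone, with the block or with any library left out, and for 0 to 1 when 1 library was left out. The second call was made for 2 members higher and 8 lower, for 4 and 5 with a minimum of 1 read, for 7 and 12 with the block, for 4 and 10 with the correction, for 6 and 12 with both, for 3 and 4 with filterByExpr, and for 2 and 4 with both strands together. With 1 library left out these were 1 to 2 and 0 to 9, and with the correction 2 to 5 and 4 to 11. Of the further p53 targets 1 was called strictly, against 3 with DESeq2, 4 with a minimum of 1 read, 0 with filterByExpr or both strands, 4 with the block, 2 with the correction, 3 with the block and the correction, and 0 to 3 with 1 library left out. Of the BCL2 family and caspases 1 was called, against 2 with DESeq2, a minimum of 1 read or the block, and 0 to 1 with 1 library left out. The members' median of −0.11 was −0.20 with upper quartile scaling, −0.03 with both strands, −0.22 with the correction, −0.21 with the block and the correction, −0.20 to −0.06 with 1 library left out, and, with the correction as well, −0.21, −0.18 and −0.20 without replicates 1 to 3 of sh-control and −0.20, −0.19 and −0.22 without replicates 1 to 3 labelled sh-RREB1. *RREB1* passed 0.05 at −0.37 (adjusted p = 0.0106) with the block and the correction and at −0.44 (0.0475) with the correction and without replicate 1 labelled sh-RREB1.

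Signs turned as follows, the second value of each being with the replicate block. With the correction *CDKN1A* was at −0.12 and −0.11, *GADD45A* at −0.37 and −0.37, *PLK3* at −0.47 and −0.45, *BAX* at −0.22 and −0.21, *FDXR* at −0.07 and −0.03, and *PERP* at 0.24 and 0.23. With 1 library left out as well, they ran from −0.15 to −0.07 for *CDKN1A* (−0.12 and −0.13 among them), −0.61 to −0.08 for *GADD45A* (−0.43, −0.52, −0.22 and −0.37 among them), −0.56 to −0.33 for *PLK3* (−0.37, −0.45 and −0.52), −0.31 to −0.14 for *BAX* (−0.19, −0.23, −0.20 and −0.21), 0.20 to 0.30 for *PERP* (0.24, 0.26 and 0.21), and −0.18 to 0.09 for *FDXR* (−0.07, −0.16 and −0.10 among them, with 0.09 without replicate 3 of sh-control and 0.06 without replicate 1 labelled sh-RREB1). Without the correction *PERP* was at 0.04 with filterByExpr and 0.10 without replicate 2 labelled sh-RREB1, *ZMAT3* at −0.06 with upper quartile scaling and from −0.06 to 0.19 with 1 library left out (below 0 without replicate 2 or 3 of sh-control or 1 or 3 labelled sh-RREB1), and *TNFRSF10B* at 0.01 with filterByExpr and without replicate 1 labelled sh-RREB1. The cause of these shifts was not tested.

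Same-numbered libraries of the groups had correlations of their deviations of 0.50, 0.43 and −0.27, so the replicate numbers were not taken as pairs, and control 3 correlated best with replicate 2 labelled sh-RREB1 (0.56). The corrected fits that left out a library were chosen after seeing the data. Among the 30 members tested, depth limits *BBC3* most, with 209 reads in total.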
